A study of Mus musculus with 2 samples.

Results

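The keratin genes were the 51 protein-coding genes of GENCODE M1 on mouse assembly mm9 whose symbol is Krt followed by a number, out of 22380 protein-coding genes. They lay in 2 clusters, 27 on chromosome 11 and 24 on chromosome 15. Krt72-ps is named as a pseudogene but is typed as protein-coding in this annotation and was kept. The cells were NMuMG, a single established line of mouse mammary epithelium, and the assay was DNaseI-seq, in which stretches of open chromatin that the enzyme cuts readily are called as peaks. Both samples were held without serum and insulin for 6 h, and then received either vehicle (the carrier solution with albumin, named as HCl in the protocol and as Tris-HCl in the sample label) or TGFβ1 at 5 ng/ml for 2 h. There was 1 peak list per condition, holding 17784 separate intervals (vehicle) and 22600 (TGFβ 2 h), here called peaks. No replicate list was analysed here, so no test between conditions was made and every difference below is one between 2 lists. Read depth is not in the lists; the study's own summary lists fewer reads for the TGFβ 2 h library than for vehicle. A peak is called shared when it has at least 1 bp in common with a peak of the other list, and vehicle-only or TGFβ-only when it has none. The class tells where a peak was called; a site uncalled in a list may still have been cut there.

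Keratins are the intermediate filament proteins of epithelial cells, and each filament is built from pairs of a type I and a type II keratin. In the mouse the type I genes sit together on chromosome 11 and the type II genes on chromosome 15, with the type I gene Krt18 placed beside its partner Krt8. Simple epithelial keratins (Krt7, Krt8, Krt18, Krt19, Krt20) serve single-layered epithelia such as gland and gut, basal keratins (Krt5, Krt14, Krt15) the basal layer of stratified epithelia and the myoepithelium of the mammary gland, and hair keratins the hard shaft of the hair. TGFβ1 drives NMuMG cells toward a mesenchymal state, in which keratin networks are usually reorganised.

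Few keratin genes had open chromatin called nearby. A peak of either list overlapped the gene or lay within 10 kb of it at 19 of 51 keratins (37.3%, Wilson 95% interval 25.3 to 51.0), and at 63.2% of all protein-coding genes. Vehicle peaks lay near 13 keratins and TGFβ 2 h peaks near 19, beside 58.4% and 60.8% of protein-coding genes. A peak within 1000 bp of a transcript start was rarer still, at 6 of 51 keratins, beside 48.1% of protein-coding genes. Keratin genes had a median length of 6.99 kb against 15.4 kb for all protein-coding genes, and the part of gene length in the difference within 10 kb was not tested. The interval covers the counting of genes only, and neighbouring keratins share peaks.

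Of the 6 keratins with a peak over a start, 4 were simple epithelial, while the 19 with a peak within 10 kb came from every group. Of the 5 simple epithelial keratins, 4 had a peak within 10 kb, and the same 4 (Krt8, Krt18, Krt19 and Krt20) had one over a transcript start. The share within 10 kb (80.0%, Wilson 95% interval 37.6 to 96.4) cannot be set apart from the 63.2% of all protein-coding genes with 5 genes, and 48.1% of those had a start peak. The exception was Krt7, the type II keratin of ducts and glands, whose nearest peak was 22.3 kb away in the TGFβ 2 h list and 40.2 kb away in the vehicle list. Of the 3 basal keratins, only Krt15 had a peak within 10 kb, 9.02 kb away in the vehicle list and 8.97 kb away in the TGFβ 2 h list, and that peak lay inside its neighbour Krt19. Krt5 and Krt14, the pair that defines basal and myoepithelial cells, had none, with nearest peaks 59.6 kb and 13.9 kb away. Of the 14 hair keratins, 3 (Krt32, Krt36 and Krt39) had a peak within 10 kb, none had one within 5 kb, and none had one over a start.

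Of the 4 activation keratins, which are switched on in wounded or stressed epidermis, Krt16 and Krt17 had 1 TGFβ-only peak between them and Krt6a and Krt6b had none. Among the 11 suprabasal and mucosal keratins, Krt10, Krt13, Krt78 and Krt79 had peaks and none was over a start. Of the 8 keratins of the inner root sheath and companion layer of the hair follicle, Krt74 alone had one. Of the 6 keratins in none of these groups, Krt80, Krt23, Krt222 and Krt72-ps had peaks. The peaks assigned to Krt222 overlapped the start of Smarce1, a chromatin remodelling gene next to the cluster. The 32 keratins without a peak within 10 kb were 11.01 to 84.8 kb from the nearest peak of either list (median 36.2 kb).

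**Figure D1:**
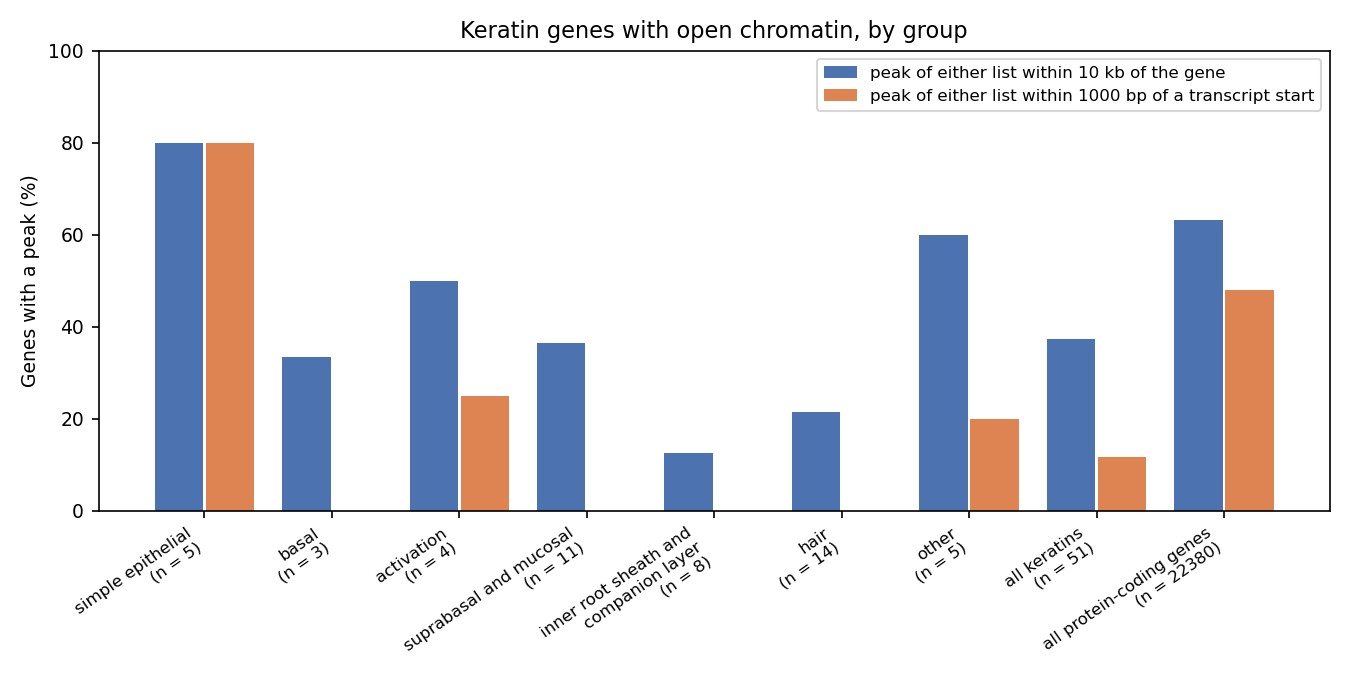
Percent of genes in each keratin group, with all keratins and all protein-coding genes at the right, that had a peak of either list within 10 kb of the gene (blue bars) or within 1000 bp of a transcript start (orange bars); n is the number of genes and there are no replicates. Simple epithelial keratins reached 80.0% on both measures, while basal, suprabasal and hair keratins had no peak over a start.

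The keratin windows held 14 vehicle peaks and 20 TGFβ 2 h peaks, each counted once however many keratins it was near. Of the vehicle peaks 10 were shared and 4 were vehicle-only (28.6%, Wilson 95% interval 11.7 to 54.6), beside 15.1% of vehicle peaks within 10 kb of any protein-coding gene. Of the TGFβ 2 h peaks 11 were shared and 9 were TGFβ-only (45.0%, 25.8 to 65.8), beside 28.3%. Both intervals hold the background share, so with so few peaks neither share can be set apart from it. Over the whole lists 17.6% (vehicle) and 33.7% (TGFβ 2 h) were unshared, the same order. Gene by gene, 7 keratins had more TGFβ 2 h than vehicle peaks, 12 had equal non-zero numbers and 0 had fewer. Of the keratins with peaks 36.8% thus had more. Among all protein-coding genes with peaks, 28.9% had more and 12.8% had fewer. The 7 were Krt16, Krt17, Krt20, Krt23, Krt32, Krt79 and Krt80, and Krt16 and Krt17 had the same peak. When the TGFβ 2 h list was cut by score to the length of the vehicle list, its keratin peaks numbered 15 and its TGFβ-only peaks 5, beside 4 vehicle-only. The cut removed the only peaks of Krt20, Krt23 and Krt32 and the narrower TGFβ 2 h peak of Krt19, which then had fewer than with vehicle. The lists hold repeated rows for 1 interval, and counted as rows the order turned, with 62 vehicle and 60 TGFβ 2 h rows near keratins.

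Krt8 and Krt18, the first keratin pair made in the embryo and the main pair of simple epithelia, had their starts 23.9 kb apart and open in both conditions. At Krt8 (ENSMUSG00000049382.9, chromosome 15, 101827142 to 101834773, minus strand) the start lay in a vehicle peak from 101834118 to 101835111 and a TGFβ 2 h peak from 101834374 to 101835054, both at the score ceiling of 1000. Scores are the authors' whole numbers from 540 to 1000 and rank peaks only within a list. The shared peak was flanked on opposite sides by an unshared one. A vehicle-only peak (101833430 to 101833965, score 549) lay in an intron, and a TGFβ-only peak (101835202 to 101836122, score 882) lay upstream of the gene. These lay 409 bp and 91 bp from the nearest peak of the other list, so both counted as shared once peaks up to 1000 bp apart were joined.

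At Krt18 (ENSMUSG00000023043.6, chromosome 15, 101858647 to 101862457, plus strand) a vehicle peak from 101858418 to 101859343 and a TGFβ 2 h peak from 101858429 to 101858982 covered the start, both at 1000. A second shared pair at 1000 in both lists lay between the genes, 10.2 kb upstream of the Krt18 start (101848070 to 101848854 in the TGFβ 2 h list). Beside it, just outside the 10 kb limit at 10.97 kb (vehicle) and 11.01 kb (TGFβ 2 h) from Krt18, lay another shared pair (101846460 to 101847680 with vehicle, score 990; 101846450 to 101847636 with TGFβ 2 h, score 1000). A vehicle-only peak at the ceiling (101855935 to 101856535) lay 2.41 kb upstream of the start and 1.89 kb from any TGFβ 2 h peak. A TGFβ-only peak (101865100 to 101865441, score 687) lay beyond the 3′ end of the gene. Krt8 thus had 2 and Krt18 had 3 peaks in each list, with 1 unshared peak in each list at each gene. Of the unshared keratin peaks, 1 of 4 vehicle-only and 1 of 9 TGFβ-only were at the ceiling, beside 4.96% and 7.77% in the whole lists.

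Windows of 300 bases around the peak midpoints are shown on mm9 for 5 peaks of Krt8 and Krt18 that touch no exon, read along the strand of the gene. They show the unshared peaks of the simple epithelial pair, with 1 shared peak beside them. The first 2 are the vehicle-only and TGFβ-only peaks at Krt8, the next 3 are the shared (TGFβ 2 h window), vehicle-only and TGFβ-only peaks around Krt18. Capitals mark exact matches, on either strand, to the AP-1 motif TGANTCA and the SMAD motif CAGAC, short strings bound by AP-1 and by the SMAD factors of TGFβ signalling. The 2 strings were counted apart even where they share bases.
Krt8 vehicle-only, chr15:101833548-101833847, minus strand: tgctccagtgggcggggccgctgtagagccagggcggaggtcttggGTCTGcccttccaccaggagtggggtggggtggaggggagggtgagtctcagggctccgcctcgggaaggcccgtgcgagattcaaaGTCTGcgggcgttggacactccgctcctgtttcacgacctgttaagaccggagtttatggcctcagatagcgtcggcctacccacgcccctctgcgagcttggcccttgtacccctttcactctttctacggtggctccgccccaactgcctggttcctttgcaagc
Krt8 TGFβ-only, chr15:101835513-101835812, minus strand: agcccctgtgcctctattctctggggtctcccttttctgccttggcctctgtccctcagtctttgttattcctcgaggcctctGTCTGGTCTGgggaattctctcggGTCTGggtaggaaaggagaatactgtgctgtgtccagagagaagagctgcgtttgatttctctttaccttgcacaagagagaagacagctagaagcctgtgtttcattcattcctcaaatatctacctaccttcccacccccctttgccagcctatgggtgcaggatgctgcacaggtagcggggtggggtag
Krt18 shared, chr15:101848313-101848612, plus strand: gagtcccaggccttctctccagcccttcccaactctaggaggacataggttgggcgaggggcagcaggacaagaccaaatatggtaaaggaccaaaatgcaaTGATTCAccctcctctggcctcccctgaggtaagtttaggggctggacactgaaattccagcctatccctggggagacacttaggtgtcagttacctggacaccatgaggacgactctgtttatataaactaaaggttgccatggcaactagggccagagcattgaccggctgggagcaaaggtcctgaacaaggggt
Krt18 vehicle-only, chr15:101856086-101856385, plus strand: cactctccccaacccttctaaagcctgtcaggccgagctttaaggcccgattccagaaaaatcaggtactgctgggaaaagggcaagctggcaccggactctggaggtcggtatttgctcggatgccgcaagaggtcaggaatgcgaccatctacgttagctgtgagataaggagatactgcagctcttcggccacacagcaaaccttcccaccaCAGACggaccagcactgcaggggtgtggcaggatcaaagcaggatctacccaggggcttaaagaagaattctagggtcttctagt
Krt18 TGFβ-only, chr15:101865121-101865420, plus strand: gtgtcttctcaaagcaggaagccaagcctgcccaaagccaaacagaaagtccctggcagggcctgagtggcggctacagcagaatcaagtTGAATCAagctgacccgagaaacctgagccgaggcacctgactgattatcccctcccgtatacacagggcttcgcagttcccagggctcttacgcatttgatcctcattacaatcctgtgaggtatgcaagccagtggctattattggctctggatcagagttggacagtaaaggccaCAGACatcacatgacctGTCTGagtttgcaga
At Krt8 the vehicle-only window held 2 SMAD matches and the TGFβ-only window 3, and neither held an AP-1 match. The shared window held 1 AP-1 match and no SMAD match, and the vehicle-only window at Krt18 held 1 SMAD match. The TGFβ-only window beyond Krt18 held 1 AP-1 and 2 SMAD matches.

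Krt19 is the smallest keratin and serves ducts and simple epithelia. Its gene (ENSMUSG00000020911.8, chromosome 11, 100002124 to 100009979, minus strand) held a wide vehicle peak from 100006283 to 100007796 (1514 bp, score 798). The TGFβ 2 h list had 2 peaks in its place, from 100006235 to 100007645 (1411 bp, score 992) and from 100007724 to 100007863 (140 bp, score 567). The vehicle peak and the wider TGFβ 2 h peak covered the annotated Krt19 start at 100007434, one of 3 in this annotation, and not the most upstream start at 100009979. A vehicle-only peak (100018768 to 100019393, score 583) lay 9.10 kb upstream. Krt19 thus had 2 peaks in each list and no TGFβ-only peak. Its shared peak is also the one within reach of the basal keratin Krt15. The window around the 140 bp peak, wider than the peak itself, held neither motif and is the only Krt19 window of a shared peak that touches no exon.
Krt19 shared, chr11:100007644-100007943, minus strand: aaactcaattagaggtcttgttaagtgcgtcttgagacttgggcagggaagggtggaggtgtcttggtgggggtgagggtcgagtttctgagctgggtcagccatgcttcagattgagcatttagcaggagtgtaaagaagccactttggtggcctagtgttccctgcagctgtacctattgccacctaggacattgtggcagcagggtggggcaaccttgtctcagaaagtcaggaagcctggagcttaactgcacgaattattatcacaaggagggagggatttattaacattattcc

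**Figure D2:**
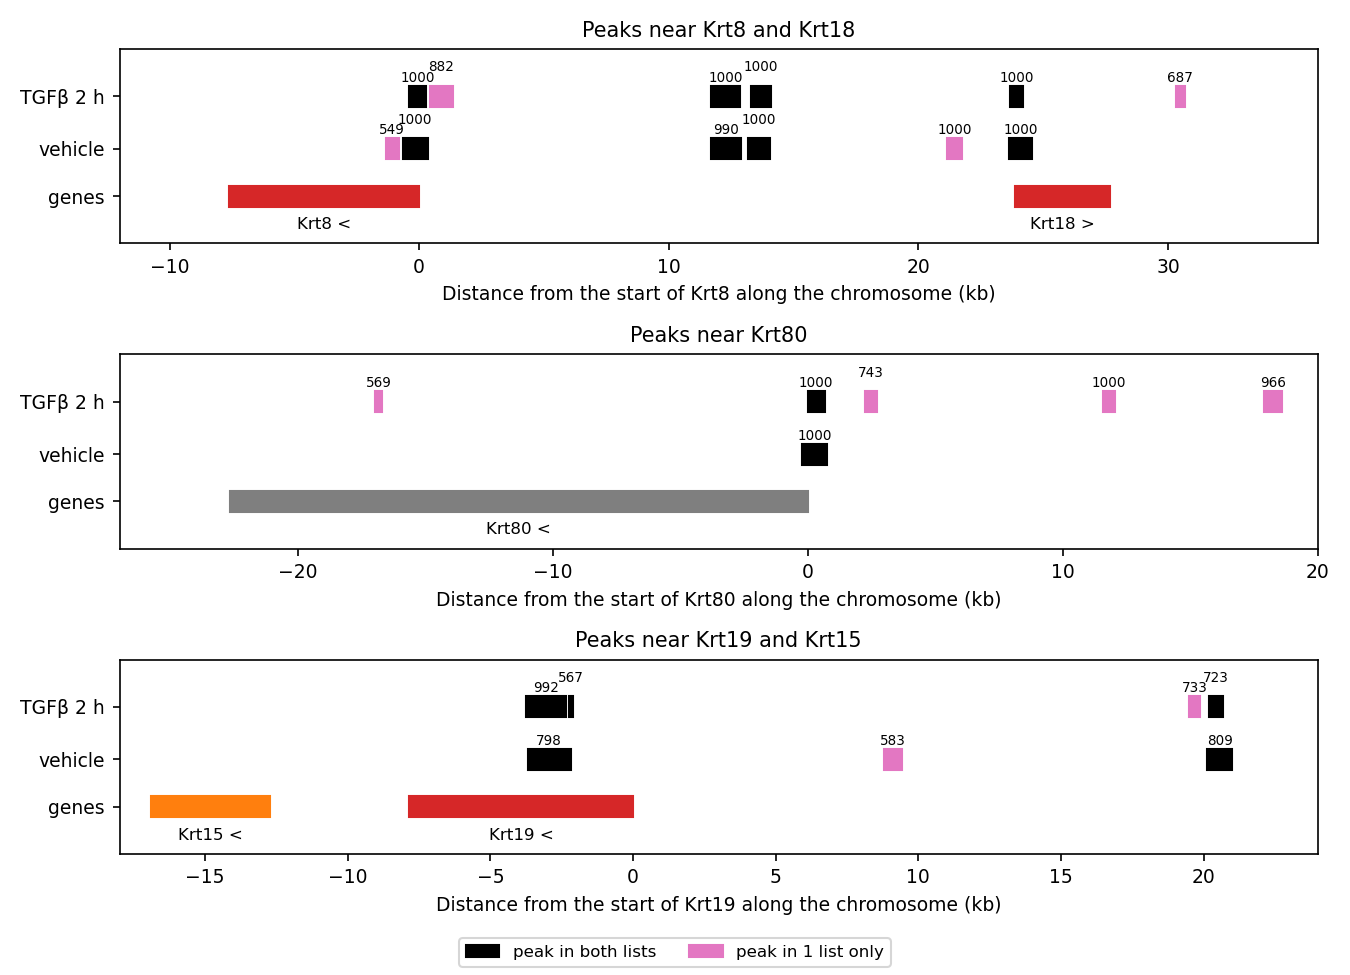
Peaks around Krt8 and Krt18 (top), Krt80 (middle) and Krt19 (bottom), drawn to scale against the distance in kb from the start of the named gene, with the peak score printed above each; black peaks were shared, pink peaks were in 1 list only, and the sign after a gene name gives its direction. All peaks in each view are drawn, including those over 10 kb from a gene. The Krt8 and Krt18 starts were open in both lists, and Krt80 had 1 vehicle peak and 5 TGFβ 2 h peaks in view.

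Krt20 and Krt16 were the 2 keratins whose starts carried a peak after TGFβ and none with vehicle, a pattern seen at 2.46% of protein-coding genes. Krt20, a keratin of intestinal and urothelial cells, had a TGFβ-only peak over its start (chromosome 11, 99299150 to 99299557, score 653). The nearest vehicle peak to it was 51.1 kb away, and the closest vehicle peak to the gene itself was 41.6 kb away. Another 2 TGFβ-only peaks lay just past the 10 kb limit, 15.9 and 16.4 kb from the gene, with scores of 554 and 922. Krt16, an activation keratin of wounded and hyperproliferative epidermis, had a TGFβ-only peak over its start (chromosome 11, 100110234 to 100110749, score 686), 26.6 kb from any vehicle peak. The same peak was the one within 10 kb of Krt17, 6.78 kb from that gene. Both scores were in the lower part of the TGFβ 2 h list, of which 20.9% and 25.3% of peaks scored lower. With that list cut to the length of the vehicle list the lowest score kept was 655, which removed the Krt20 peak and kept that of Krt16, so the Krt20 start was then open in neither list. No keratin start carried a peak with vehicle and none after TGFβ, a pattern seen at 1.85% of protein-coding genes.

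The letters before these starts are shown because those of Krt20 and Krt16 held a TATA box string that those of the shared starts lacked. Krt19 is not shown since its start peak lay at an internal start. The 150 bases upstream of the annotated gene start are given on mm9 along the strand of the gene, with matches to TATAAA, the core of the TATA box of promoters, in capitals. This string was searched on both strands and was chosen after the data were seen.
Krt8, shared, chr15:101834774-101834923, minus strand: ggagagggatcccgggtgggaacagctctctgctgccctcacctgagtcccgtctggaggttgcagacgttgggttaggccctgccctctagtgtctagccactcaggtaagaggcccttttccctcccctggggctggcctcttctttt
Krt18, shared, chr15:101858497-101858646, plus strand: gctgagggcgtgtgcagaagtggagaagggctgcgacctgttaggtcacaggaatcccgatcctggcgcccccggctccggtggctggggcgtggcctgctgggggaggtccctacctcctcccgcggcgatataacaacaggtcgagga
Krt80, shared, chr15:101200557-101200706, minus strand: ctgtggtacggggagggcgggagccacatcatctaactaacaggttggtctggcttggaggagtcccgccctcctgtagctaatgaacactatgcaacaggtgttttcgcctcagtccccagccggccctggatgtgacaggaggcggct
Krt20, TGFβ-only, chr11:99299465-99299614, minus strand: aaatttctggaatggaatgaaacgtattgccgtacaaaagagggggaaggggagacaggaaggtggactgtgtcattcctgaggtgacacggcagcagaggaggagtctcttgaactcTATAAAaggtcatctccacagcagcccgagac
Krt16, TGFβ-only, chr11:100110277-100110426, minus strand: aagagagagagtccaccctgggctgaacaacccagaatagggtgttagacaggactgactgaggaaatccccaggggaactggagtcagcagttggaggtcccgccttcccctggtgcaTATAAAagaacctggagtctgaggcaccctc
TATAAA was present before Krt20 and Krt16 and not before Krt8, Krt18 or Krt80. Over all keratins 22 of 51 held it in this window (43.1%), beside 7.88% of protein-coding genes. Of the 22, none had a vehicle peak over a start and 2 had a TGFβ 2 h peak. Of the 29 without it, 4 had a start peak in each list, one of them Krt19, whose peak lay at its internal start and not beside the bases searched. Among all protein-coding genes the share with a vehicle peak over a start was 16.4% with the string and 48.1% without it. A start peak after TGFβ and not with vehicle was found at 2 of the 22 keratins with the string and 0 of the 29 without it. That split was fixed when the string was chosen from these 2 starts, so nothing can be read from it. Over all protein-coding genes that pattern was about as frequent with the string (2.16%) as without it (2.48%), and no difference was tested.

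Krt80, a type II keratin found in many epithelia, had the most additional peaks. Its start (ENSMUSG00000037185.7, chromosome 15, 101177875 to 101200556, minus strand) lay in a vehicle peak from 101200338 to 101201294 and, near the edge, in a TGFβ 2 h peak from 101200542 to 101201222, both at 1000. A TGFβ-only peak lay in an intron (101183579 to 101183867, score 569) and another 2.48 kb upstream of the start (101202788 to 101203285, score 743). Beyond the 10 kb limit on the same side were 2 more TGFβ-only peaks, 11.6 kb (score 1000) and 17.9 kb (score 966) from the gene. With all 4 counted, the vehicle list had 1 peak in this stretch and the TGFβ 2 h list had 5. Krt7 is the next keratin on that side, 22.3 kb past the last of them.

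The remaining unshared peaks lay near Krt23, Krt32, Krt78 and Krt79. Between Krt79 and Krt78 there was a TGFβ-only peak at the ceiling (chromosome 15, 101772245 to 101772867), 1.49 kb upstream of Krt79, while a vehicle-only peak (101782532 to 101783293, score 751) lay in an intron of Krt78. These were 9.67 kb apart. Upstream of Krt23, a type I keratin, lay a TGFβ-only peak (chromosome 11, 99357759 to 99358140, score 558), and 6.25 kb from the hair keratin Krt32 lay another (99935316 to 99935912, score 609), in an intron of Gm11571, a processed transcript. The Krt23 and Krt32 peaks, like the intron peak of Krt80, were also lost when the list was cut to the vehicle length. The shared peaks here were those in Krt10, 5.50 kb from Krt39, between Krt36 and Krt13, and between Krt74 and Krt72-ps. The peak in Krt10 was not over its start and lay 573 bp from the start of Gm11940, a transcript on the opposite strand, in the vehicle list.

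The windows of the TGFβ-only peaks at Krt16, Krt23 and Krt79 held AP-1 matches and are shown with the same marking, as examples from outside the simple epithelial group. The TGFβ-only windows at Krt32 and Krt80, also outside that group, held no AP-1 match and are not shown.
Krt16, chr11:100110342-100110641, minus strand: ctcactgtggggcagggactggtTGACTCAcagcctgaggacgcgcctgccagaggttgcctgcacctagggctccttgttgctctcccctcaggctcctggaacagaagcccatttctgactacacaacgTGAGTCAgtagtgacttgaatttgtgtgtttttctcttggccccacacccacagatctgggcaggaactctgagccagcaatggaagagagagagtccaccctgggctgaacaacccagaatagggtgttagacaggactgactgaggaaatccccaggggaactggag
Krt23, chr11:99357800-99358099, minus strand: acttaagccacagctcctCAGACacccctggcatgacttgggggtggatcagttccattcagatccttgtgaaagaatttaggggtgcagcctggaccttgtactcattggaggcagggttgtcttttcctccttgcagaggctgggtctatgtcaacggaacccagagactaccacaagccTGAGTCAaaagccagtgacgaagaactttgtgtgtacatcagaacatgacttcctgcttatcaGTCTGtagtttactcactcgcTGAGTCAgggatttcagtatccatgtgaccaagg
Krt79, chr15:101772407-101772706, minus strand: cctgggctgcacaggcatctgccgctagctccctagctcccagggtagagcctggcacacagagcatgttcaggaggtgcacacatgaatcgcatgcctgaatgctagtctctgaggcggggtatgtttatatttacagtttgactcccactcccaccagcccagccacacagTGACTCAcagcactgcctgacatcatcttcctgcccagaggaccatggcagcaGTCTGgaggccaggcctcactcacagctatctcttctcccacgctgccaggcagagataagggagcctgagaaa
The Krt16 and Krt23 windows each held 2 AP-1 matches and the Krt79 window 1, and the Krt16 window held no SMAD match. Over the keratin peaks an AP-1 match was present in 4 of 9 TGFβ-only, 1 of 4 vehicle-only and 3 of 10 shared vehicle windows. Over all peaks of these classes the shares were 39.5%, 12.98% and 15.4%. A SMAD match was present in 8 of 9 TGFβ-only, 3 of 4 vehicle-only and 6 of 10 shared vehicle windows, beside 67.2%, 57.6% and 50.6%. The TEAD motif CATTCC was present in 3 of 9 TGFβ-only windows, beside 20.6%, and the ETS motif CCGGAA in 0 of 9, beside 5.87%. The grainyhead motif AACNGGTT was found in none of the keratin windows, beside 1.77% of all TGFβ-only windows. With 9 windows these counts describe the keratin peaks and set nothing apart from the rest of their class. A match is not evidence of binding.

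Where a shared keratin peak had 1 partner, it was narrower after TGFβ. In 9 pairs 1 vehicle peak met 1 TGFβ 2 h peak, and width was lower after TGFβ in 9 of 9, beside 70.9% of the 13978 such pairs in the whole lists. The median width was 926 bp with vehicle and 681 bp after TGFβ, beside 826 bp and 734 bp for all pairs, so the keratin vehicle peaks were the wider to begin with. The width ratio ran from 0.598 at the Krt18 start to 0.889 at the peak upstream of Krt18, with a median of 0.723, beside a median of 0.906 for all pairs. At the Krt18 start the right edge shifted by -361 bp and the left edge by 11 bp. At the Krt8 start the peak went from 994 to 681 bp and at Krt80 from 957 to 681 bp. The Krt19 site, with 2 partners, is outside this count and went from 1514 bp to peaks of 1411 and 140 bp. All keratin peaks together covered 12260 bp with vehicle and 12316 bp after TGFβ. The TGFβ 2 h library has fewer reads by the study's summary, and the part of depth in these widths was not tested.

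**Figure D3:**
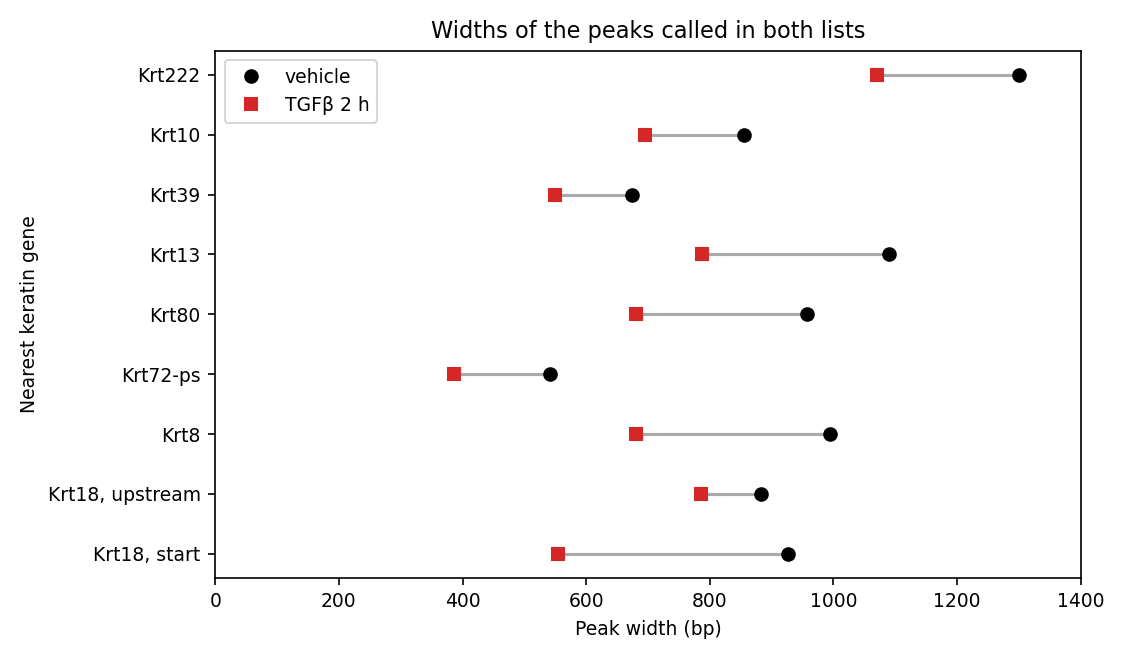
Width in bp of the 9 one-to-one shared peaks near keratin genes in the vehicle list (black circles) and the TGFβ 2 h list (red squares), 1 list per condition with no error to show; the 2 peaks of Krt18 are named apart. Every TGFβ 2 h peak lies to the left of its vehicle partner, with ratios from 0.598 to 0.889.

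Scores were read by rank within each list. For the shared peak near Krt39, 9.35% of the vehicle list and 31.3% of the TGFβ 2 h list scored lower. The same shares were 36.9% and 55.7% between Krt36 and Krt13, 24.4% and 41.5% near Krt72-ps, and 46.8% and 52.3% in Krt10. At Krt19 31.4% of vehicle peaks scored below the vehicle peak, while 55.1% and 5.41% of TGFβ 2 h peaks scored below its wide and its narrow partner. The vehicle peak in Krt10 and the TGFβ 2 h peak between Krt36 and Krt13 were at the ceiling, where ranks are tied. The lists differ in length and in their share at the ceiling, so these ranks are values and no order between conditions is read from them.

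Along the chromosomes, the peaks of the type II cluster lay mainly at its Krt8 and Krt18 end and, in the TGFβ 2 h list, also around Krt80. On chromosome 15 the span from Krt80 to Krt18 was 685 kb and held 12 vehicle and 14 TGFβ 2 h peaks. This came to 17.5 and 20.5 peaks per Mb, beside 9.75 and 12.0 over the chromosome. The TGFβ 2 h peaks scoring 569 and 651 in this span fell below 655, the lowest score kept in the cut to the vehicle length. The stretch from upstream of Krt80 to beyond Krt75, with Krt7, Krt75 and the hair keratins Krt81 to Krt84 and Krt86, held no peak of either list over 208 kb. In the TGFβ 2 h list the empty stretch ran on to 384 kb and took in Krt6b, Krt6a, Krt5, Krt71 and Krt74. In the vehicle list it ended at a vehicle-only peak (101427602 to 101428132, score 599) 23.3 kb from Krt75.

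On chromosome 11 the span from Krt222 to Krt42 was 1037 kb and held 8 vehicle and 19 TGFβ 2 h peaks, or 7.71 and 18.3 per Mb beside 12.9 and 15.3 over the chromosome. The vehicle list had no peak over 559 kb, from Krt39 past Krt31, a stretch that holds all 22 keratin-associated protein (Krtap) genes of the cluster, which make the matrix around hair keratins. Between Krt40 and Krt33a, in the same stretch, the TGFβ 2 h list had 4 peaks, of which 4 were TGFβ-only and 1 was at the ceiling. In all, 11 of the 19 TGFβ 2 h peaks in the span were TGFβ-only, 7 of them over 10 kb from a keratin gene, beside 33.7% of the whole TGFβ 2 h list. Of the 8 vehicle peaks 1 was vehicle-only, beside 17.6% of the vehicle list. Over all 46 Krtap genes, 6 had a peak within 10 kb, beside 63.2% of protein-coding genes.

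**Figure D4:**
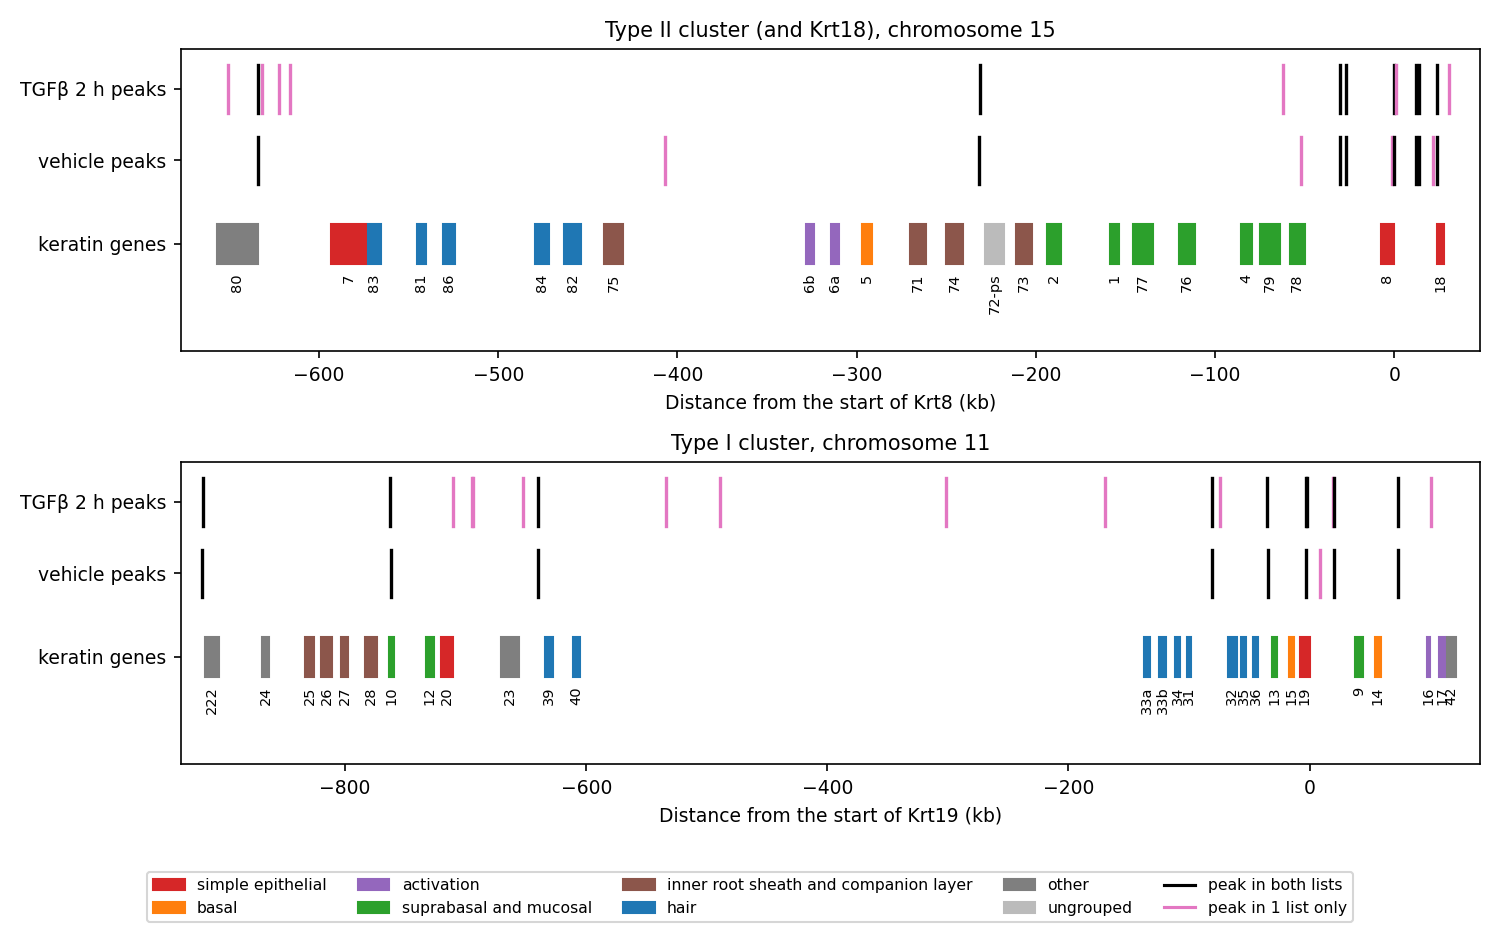
Keratin genes (boxes coloured by group, labelled by the part of the symbol after Krt) with vehicle and TGFβ 2 h peaks (vertical lines at the peak midpoint; black for shared, pink for in 1 list only) over the chromosome 15 and chromosome 11 clusters, against the distance in kb from the start of Krt8 or Krt19. Peaks gather around Krt8 and Krt18 and around Krt80 above, and the part of the chromosome 11 cluster between Krt40 and Krt33a has TGFβ 2 h peaks but no vehicle peak.

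Genes that act beside keratins are given for comparison. Of 15 other intermediate filament genes, 11 had a peak within 10 kb (73.3%, Wilson 95% interval 48.0 to 89.1) and 6 had one over a start, near the 63.2% and 48.1% of all protein-coding genes. Vim, the filament gene of mesenchymal cells, had its start open in both lists with 1 peak each. The starts of the lamin genes Lmna, Lmnb1 and Lmnb2 were open in both as well. Des, Nefl, Nefm and Nefh, filaments of muscle and neurons, had none. TGFβ 2 h peaks outnumbered vehicle peaks at 6 of the 15 (Lmnb1, Lmnb2, Synm, Nes, Ina and Prph), were equal in number at 2 and were fewer at 3 (Bfsp1, Gfap and Lmna). Among all protein-coding genes with peaks, 28.9% had more and 12.8% had fewer, and with so few genes no difference from these shares is read. Lmnb1 had the widest gap, with 1 vehicle and 4 TGFβ 2 h peaks, and Bfsp1, a filament gene of the lens, had 4 and 2. Synm, which encodes synemin, had start peaks in both lists, a TGFβ-only one among them, and Gfap, the filament gene of astrocytes, had a vehicle-only peak over its start. Of 10 genes for proteins that anchor keratin filaments to junctions or link them together, 9 had a peak within 10 kb. Their Wilson 95% interval of 59.6 to 98.2 holds the same 63.2%. A start open in both lists was found at 8 of the 10, beside 9799 of all 22380 protein-coding genes. The part of gene length in these counts was not tested. Plec, a linker of filaments to hemidesmosomes, had 7 peaks in each list and no unshared one. Dsp, the desmosomal anchor of keratins, had 3 shared peaks in each. Dst, which encodes a hemidesmosomal linker, had 4 vehicle peaks, 2 of them vehicle-only, and 8 TGFβ 2 h peaks, 6 of them TGFβ-only. Among the 10, TGFβ 2 h peaks were more numerous at 3 (Dst, Ppl and Pkp1), equal at 4 and fewer at 2 (Jup and Evpl), beside the same 28.9% and 12.8%. Pkp3 had none. Of 5 epithelial markers, 3 had a peak within 10 kb and 1, Cdh1 (E-cadherin), had its start open in both lists, while Epcam and Cldn7 had none. Of the 4 haematopoietic markers 0 had a peak within 10 kb. Of the 4 endothelial markers 3 had one within 10 kb and 0 had one over a start. With 63.2% of protein-coding genes near a peak, these counts do not tell epithelial from endothelial markers.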

How the data were processed

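DNaseI-seq of NMuMG cells was analysed from the 2 deposited peak lists, grouped by sample title, 1 per condition. According to the methods the authors aligned reads to mm9 and ran the ATAC-seq pipeline with settings for DNaseI-seq whose details are not given in the sources used here. The submitters' processing notes name MACS2 2.1.2 and deepTools. Libraries were made in duplicate per the design text, and the raw files are listed as merged. For ATAC-seq the methods kept only peaks reproducible between replicates by the irreproducible discovery rate. They say that DNaseI-seq followed the same pipeline, but not whether this step was run on the DNaseI-seq duplicates. The deposited score is a whole number from 540 to 1000 of unstated scale. The other deposited columns used are interval coordinates. Rows of the same interval (70449 vehicle, 68542 TGFβ 2 h) were collapsed to 1 peak. Gene models and sequence were GENCODE M1 and NCBIM37, the build of the files. The window was 10 kb and the start window 1000 bp. Only exact motif matches were counted.

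Python 3.11.15, pandas 2.3.3 and SciPy 1.17.1 were used, and overlap counts were tested on simulated data. Alternatives covered the window, overlap, score and repeated rows. The members, gene groups and lists were chosen with earlier results of these data known. Named were all keratins with a peak over the body or a start, and all unshared peaks. Sequences were to come from TGFβ-only and shared peaks at simple epithelial and basal keratins that touch no exon. Those of the Krt8 and Krt18 vehicle-only peaks and of Krt16, Krt23 and Krt79 were added after their values were seen. The window of the Krt19 vehicle-only peak, which touches no exon and held 1 AP-1 match, was not added. Of the keratin symbols listed by hand, 8 were not in the annotation, and Eppk1, on the anchoring list, was not matched either.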

Additional observations from a re-analysis of the deposited data

How the results depend on the processing

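All values come from 1 list per condition, so no replicate could be left out. No paired analysis was possible because a single list stands for either group and nothing was tested. Of 78 values under 10 alternative settings, 50 stayed within 1.5 times the value given (a percent within its interval) and 28 did not. With gene bodies alone there were 7 vehicle peaks (2 vehicle-only) and 9 TGFβ 2 h peaks (3 TGFβ-only) at 8 keratins, with 0 basal and 0 hair keratins. With a 5 kb window 0 basal and 0 hair keratins had a peak. With 20 kb, 2 basal and 5 hair keratins did, and there were 23 vehicle and 37 TGFβ 2 h peaks, 18 of these TGFβ-only. Counting every deposited row gave 62 vehicle rows (11 vehicle-only) and 60 TGFβ 2 h rows (20 TGFβ-only), so the excess of TGFβ 2 h peaks was not seen in rows. Peaks at the score ceiling numbered 7 in each list, with 1 vehicle-only and 1 TGFβ-only (14.3%), at 9 keratins, of which 2 were simple epithelial, 0 basal and 1 hair. With the TGFβ 2 h list cut to the length of the vehicle list, 5 peaks were TGFβ-only. The windows, rows and thresholds move these counts by construction. TGFβ-only peaks outnumbered vehicle-only peaks in 9 of the 10 settings, the exception being the score ceiling, where they were equal. A peak call depends on depth, and sites just under the calling threshold cannot be seen in these lists.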
